A study of Mus musculus with 2 samples.

Results

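The genes described here are the regulators of the G1 phase that sit around cyclin-dependent kinases 4 and 6: the D-type cyclins Ccnd1, Ccnd2 and Ccnd3, the kinases Cdk4 and Cdk6, the CIP/KIP inhibitors Cdkn1a and Cdkn1b, and the INK4 inhibitors Cdkn2b, Cdkn2c and Cdkn2d. They are 10 of 24369 gene rows, selected by symbol from a list of the family, and every one was found. Their relatives Cdkn1c, which is imprinted, and Cdkn2a are outside the list and given with the wider pathway. The cells were alveolar type 2 cells (type II pneumocytes, the surfactant-making cells of the lung), sorted from wild-type C57BL6 mice and labelled as postnatal day 7 (P7) or postnatal day 28 (P28). There was 1 RNA-seq library at each age, with levels in RPKM, a read number divided by transcript length and library depth. The labels do not say how the cells were sorted or how many mice each library came from. Other ages named in the protocol were not analysed here.

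D-type cyclins are made in response to growth signals and bind CDK4 or CDK6. The active complexes phosphorylate the retinoblastoma protein, which releases E2F transcription factors and lets a cell pass from G1 into S phase. INK4 proteins bind CDK4 and CDK6 themselves and keep cyclin D off. CIP/KIP proteins bind whole cyclin-CDK complexes and block CDK2, while also helping cyclin D and CDK4 assemble. Type 2 cells divide as the alveoli form after birth and are mostly quiescent in the adult lung, where they can re-enter the cycle after injury.

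With 1 library per age no difference has a replicate check and no p-value can be given, so "higher" and "lower" compare these 2 libraries. The spacing of the lowest values showed that 1 read in a transcript of 1 kb was worth 0.0569 RPKM at P7 and 0.0407 at P28, which put between 9 and 1960 reads on each of the 10 genes in a library. Each interval below is a 95% exact interval for the counting of those reads. It covers counting error only and, for a ratio between the ages, holds at the deposited scaling. The 10 most abundant genes took 27.9% of the summed RPKM at P7 and 44.1% at P28, so the scaling matters for small differences and is given beside them. Xist had 52.7 RPKM at P7 and 0.245 at P28, and the Y-linked genes Ddx3y, Kdm5d, Uty and Eif2s3y had 0 reads at P7 and 269 to 453 at P28. Age and sex of the mice therefore cannot be told apart.

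The type 2 marker Sftpc was the most abundant gene in both libraries, with 13340 RPKM at P7 and 24080 at P28. All 10 type 2 markers passed 1 RPKM in both, as did all 10 type 1 markers. The type 2 sum, most of it Sftpc, was 16730 RPKM at P7 and 29340 at P28. Of these 10 markers 1 was at least 2-fold higher, and 0 with equal totals. Their median log2 ratio was 0.36 as deposited and -0.04 with equal totals. The club cell gene Scgb1a1 ranked 2 in both libraries, with 6764 and 18100 RPKM. Markers of other cells differed between the libraries. The summed RPKM of 12 endothelial markers was 55.7 at P7 and 27.6 at P28. Of the 9 that passed 1 RPKM, 5 were at least 2-fold lower, and 7 with equal totals. Of those 5, 2 passed through P7 alone and had to be lower. Sums of 12 fibroblast and smooth muscle markers were 40.3 and 15.4 (4 of 8 lower, 6 with equal totals, Lum at 0 at P7). Of those 4 lower, 2 passed through P7 alone. Sums of 10 type 1 cell markers were 394 and 230 (3 of 10 lower, and 7 with equal totals). Those of 8 erythroid markers were 47.9 and 1.75, where the 6 that passed did so through P7 alone and had to be lower. The globin rows Hbb-b2 and Hbb-bt held the same values, so their signal is counted more than once. For 10 airway markers the sums were 7397 and 19120 (4 of 8 higher, 3 with equal totals, Krt5 and Trp63 at 0 at P7). Of all genes that passed 1 RPKM, 1.96% were at least 2-fold lower by the same rule and 1.18% higher. With equal totals the shares were 4.61% and 0.673%. Leukocyte markers summed to 5.87 and 5.74, with Marco, C1qa and C1qb at 0 in both. The part of these cells in the values below was not tested. In such bulk libraries fewer cells of a type and less RNA per cell cannot be told apart.

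Of the 10 genes, Cdkn2b was at least 2-fold lower at P28 on the scale of log2(RPKM + 1), 9 lay within 2-fold, and 0 were higher. The same rule called 1.96% lower and 1.18% higher of all 9653 genes that reached 1 RPKM in either library. With both libraries rescaled to the same total, 1 of the 10 genes was called lower and 0 higher, beside 4.61% and 0.673% of all genes. The median log2 ratio of the 10 genes was -0.20, beside -0.08 for all genes. The plain ratio of RPKM had a counting interval wholly below 1 for 5 of the 10 genes (Ccnd2, Cdk4, Cdk6, Cdkn2b and Cdkn2c) and wholly above 1 for 1 (Ccnd1). That was so for 32.3% and 17.5% of the 9572 genes with a transcript length, so intervals that miss 1 were common in this pair of libraries. All 10 genes passed the filter, 9 of them in both libraries. Cdkn2c passed through its P7 value alone, so it had to be lower at P28.

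**Figure D1:**
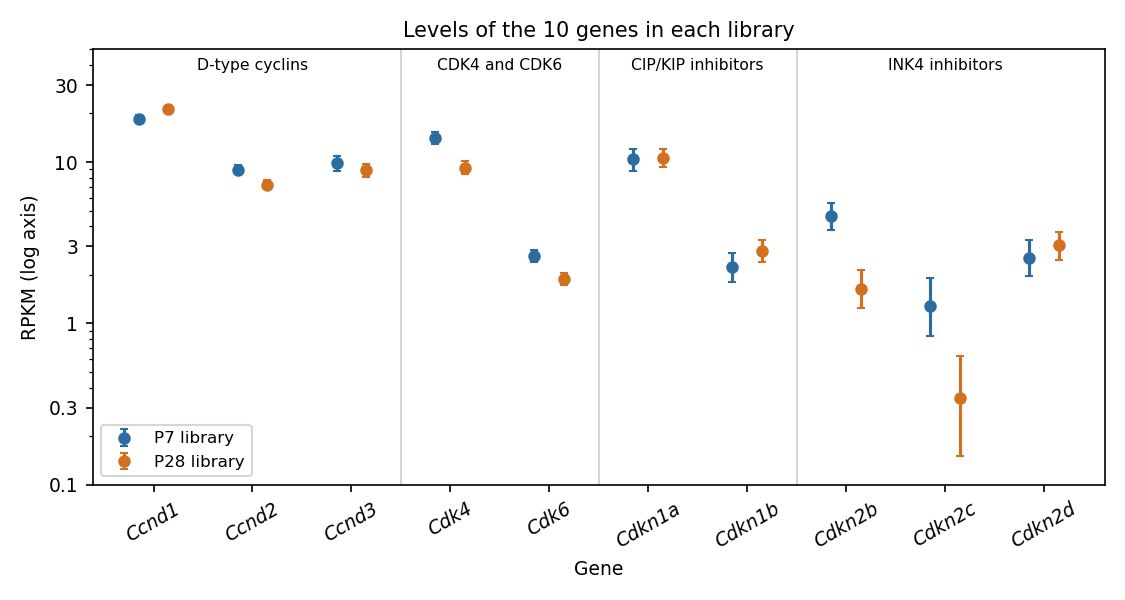
Levels of the 10 genes in RPKM on a log axis, with the P7 library in blue and the P28 library in orange; points are the deposited values and bars are 95% counting intervals. Ccnd1 is the highest gene in both libraries (18.4 and 21.3 RPKM, an order of ages that turns with equal totals), and the widest gaps between the libraries are those of Cdkn2b and Cdkn2c.

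The deposited levels of the D-type cyclins summed to 37.2 RPKM at P7 and 37.5 at P28, a ratio of 1.01 that becomes 0.766 with equal totals. Within that sum the makeup shifted toward Ccnd1. Ccnd1 encodes cyclin D1, the D-type cyclin best known in epithelial cells, and lies on chromosome 7 from 144929931 to 144939925 on the minus strand of GRCm38. It had 18.4 RPKM at P7 and 21.3 at P28, from 1209 and 1960 reads, a ratio of 1.16 (interval 1.08 to 1.25). This is the one gene of the 10 whose interval lay above 1, but with equal totals its log2 ratio went from 0.20 to -0.17, so its direction between the ages rests on the scaling. Its share of the D-type cyclin RPKM within a library does not. Ccnd1 made up 49.5% of it at P7 and 57.0% at P28.

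Ccnd2 encodes cyclin D2 and lies on chromosome 6 from 127125162 to 127152193 on the minus strand. It had 8.98 RPKM at P7 and 7.25 at P28, a ratio of 0.807 (0.741 to 0.880), and its share of the family was 24.2% and 19.4%. Ccnd3, which encodes cyclin D3, lies on chromosome 17 from 47505051 to 47599691 on the plus strand. It had 9.80 and 8.87 RPKM, a ratio of 0.905 whose interval of 0.783 to 1.05 includes 1, and a share of 26.4% and 23.7%. The level of Ccnd1 was 2.05 times that of Ccnd2 at P7 and 2.94 times at P28, a shift of 1.44-fold (1.28 to 1.61). Against Ccnd3 the shift was 1.28-fold (1.09 to 1.51), while that between Ccnd2 and Ccnd3 was 0.892 (0.754 to 1.06). Both minor cyclins thus stood lower relative to cyclin D1 at P28 by more than counting error.

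Some reads of these genes can belong to a neighbour, since nothing states that the counting used strand. The opposite-strand gene Oraov1 (LTO1 in the annotation) covers 29.4% of the exonic bases of Ccnd1 and had 1.51 and 1.41 RPKM. Bysl covers 15.9% of Ccnd3 on the opposite strand and had 1.26 and 1.35 RPKM. Ccnd3 also has a pseudogene copy, Ccnd3-ps, that matches it over 881 bases at 96.3% identity. Its level is therefore less certain than that of Ccnd2.

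Both kinases were lower at P28 by more than counting error, though by less than 2-fold. Cdk4 lies on chromosome 10 from 127063534 to 127067920 on the plus strand. It had 14.1 RPKM at P7 and 9.21 at P28, from 508 and 465 reads, a ratio of 0.654 (0.576 to 0.744). Cdk6, on chromosome 5 from 3341485 to 3531008 on the plus strand, had 2.62 RPKM at P7 and 1.88 at P28, a ratio of 0.716 (0.633 to 0.809). The log2 ratios were -0.56 and -0.33, short of 2-fold, and stayed negative in every scaling tried. Cdk4 supplied 84.3% of the summed RPKM of the kinases at P7 and 83.1% at P28, and the ratio of Cdk4 to Cdk6 moved by 0.913 (0.766 to 1.09), an interval that includes 1. Tspan31, on the opposite strand, covers 31.2% of the exonic bases of Cdk4 and had 8.83 RPKM at P7 and 9.49 at P28. Without strand, reads in the shared stretch cannot be assigned to one gene or the other. Short stretches of Cdk6 match many other transcripts at 95% identity or more. The longest match had 233 bases, in a Cdk6 transcript of 11525. Malat1, with 1052 RPKM at P7 and 1711 at P28, matched over 129 bases. What such matches add to the Cdk6 level was not tested.

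Neither CIP/KIP inhibitor differed between the libraries beyond counting error at the deposited scaling. Cdkn1a, which encodes p21 and is a classic target of p53, lies on chromosome 17 from 29090976 to 29100727 on the plus strand. It had 10.4 RPKM at P7 and 10.7 at P28, a ratio of 1.03 with an interval of 0.840 to 1.26. Cdkn1b, which encodes p27 and is known for holding cells in quiescence, lies on chromosome 6 from 134920401 to 134925513 on the plus strand. It had 2.24 and 2.81 RPKM, a ratio of 1.25 (0.969 to 1.64). Both log2 ratios, 0.04 and 0.23, turned negative with equal totals, at -0.33 and -0.05. Cdkn1a made up 82.2% of the summed RPKM of the pair at P7 and 79.2% at P28, and the ratio of one to the other moved by 0.821 (0.585 to 1.14).

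The INK4 inhibitors included the widest gaps between the libraries, and 1 of the 3 had none beyond counting error. Cdkn2b, which encodes p15 and is a well-known target of TGF-beta signalling, lies on chromosome 4 from 89306299 to 89311039 on the minus strand. It had 4.61 RPKM at P7 and 1.63 at P28, from 113 and 56 reads, and was 2.82-fold lower at P28 (2.03 to 3.96). Its log2 ratio of -1.09 is the only one of the 10 past 2-fold, and was -1.38 with equal totals. Cdkn2c, which encodes p18, lies on chromosome 4 from 109660876 to 109667189 on the minus strand, at some distance from Cdkn2b. It was the lowest of the 10 genes, with 1.29 RPKM at P7 and 0.343 at P28. The plain ratio made it 3.75-fold lower, with a wide interval of 1.75 to 9.45 from 25 and 9 reads, counted with the shorter of its 2 transcripts. Its log2 ratio of -0.77 missed 2-fold because the pseudocount of 1 pulls in genes this low. With a pseudocount of 0.1 the log2 ratio was -1.65 and 2 of the 10 genes were called lower, where 5.49% of all genes tested were. Under that setting 0 were called higher, where 2.34% of all were. Cdkn2c passed the filter through P7 alone, so the direction of its call was fixed.

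Cdkn2d, which encodes p19 of the INK4 family, lies on chromosome 9 from 21288410 to 21291407 on the minus strand. It had 2.55 RPKM at P7 and 3.04 at P28, a ratio of 1.19 (0.861 to 1.64), so no difference was detectable at this depth. Its log2 ratio turned from 0.19 to -0.10 with equal totals. Cdkn2b was the leading INK4 gene at P7, with 54.6% of the family sum against 30.2% for Cdkn2d and 15.2% for Cdkn2c. At P28 Cdkn2d led with 60.6%, and Cdkn2b had 32.6% and Cdkn2c 6.83%. The level of Cdkn2b was 1.81 times that of Cdkn2d at P7 and 0.537 times at P28, a 3.36-fold shift whose interval as a ratio of P28 to P7 runs from 0.187 to 0.479. Cdkn2c shifted against Cdkn2d in the same direction, by 4.47-fold (0.0844 to 0.522 as a ratio of P28 to P7). Between Cdkn2b and Cdkn2c the shift of 1.33 had an interval of 0.573 to 3.58. The INK4 sum went from 8.44 to 5.02 RPKM. Cdkn2a, the remaining INK4 gene and the neighbour of Cdkn2b, had no read in either library.

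**Figure D2:**
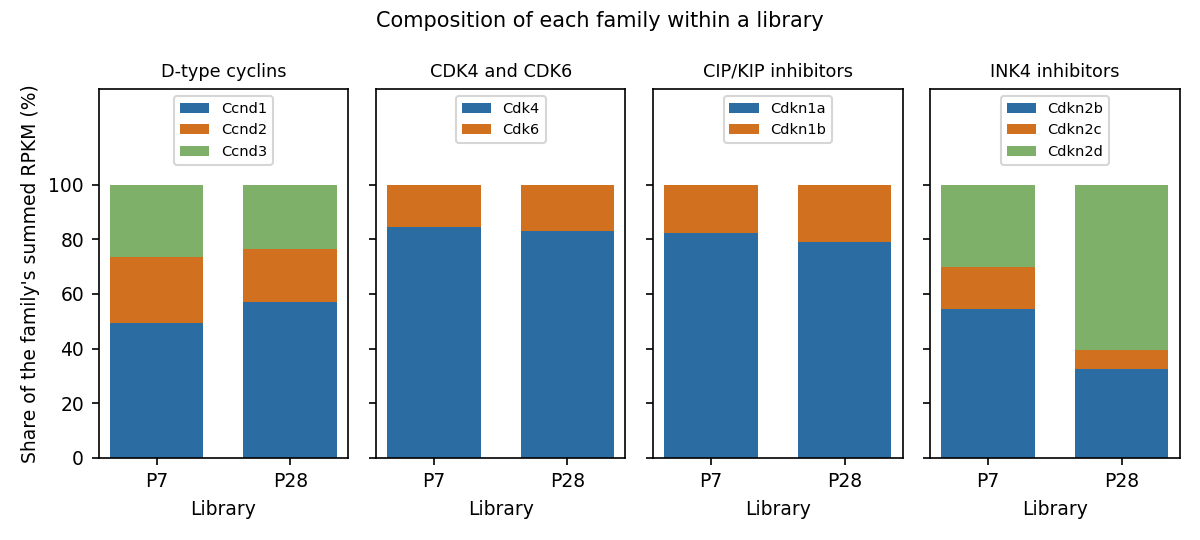
Share of each gene in the summed RPKM of its family (vertical axis, percent) in the P7 and P28 libraries, 1 panel per family. Bars are shares within a library, so no scaling between the libraries moves them. In the INK4 panel Cdkn2b holds 54.6% at P7 and Cdkn2d 60.6% at P28, while the CDK4 and CDK6 panel hardly differs.

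Promoter sequence is shown for 3 genes, Cdkn2b, Cdk4 and Cdkn1b. Cdkn2b and Cdk4 were the leading genes at P7 of the INK4 and kinase families, whose sums were lower at P28. Cdkn1b had no difference beyond counting error (interval of the ratio 0.969 to 1.64), and a log2 ratio of -0.05 with equal totals. Annotated exon covers the last 7 bases of the Cdkn2b window and 1 of the Cdk4 window. Each is the 250 bases before the start site in RefSeq, build GRCm38.p6, written 5′ to 3′ on the gene's own strand. Capitals mark matches on either strand to the GC box GGGCGG, the CCAAT box CCAAT, the TATA box TATAAA, the E-box CACGTG (the site read by Myc and related factors) or an E2F word (TTTCCCGC, TTTCGCGC, TTTGCCGC or TTTGGCGC). No matches overlap in these 3 windows.
Cdkn2b, chr4:89311033-89311282, minus strand: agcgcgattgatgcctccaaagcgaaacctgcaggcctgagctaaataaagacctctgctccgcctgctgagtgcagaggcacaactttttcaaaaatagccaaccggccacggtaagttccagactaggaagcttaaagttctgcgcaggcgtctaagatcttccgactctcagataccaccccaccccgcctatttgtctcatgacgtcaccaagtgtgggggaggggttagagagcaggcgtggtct
Cdk4, chr10:127063285-127063534, plus strand: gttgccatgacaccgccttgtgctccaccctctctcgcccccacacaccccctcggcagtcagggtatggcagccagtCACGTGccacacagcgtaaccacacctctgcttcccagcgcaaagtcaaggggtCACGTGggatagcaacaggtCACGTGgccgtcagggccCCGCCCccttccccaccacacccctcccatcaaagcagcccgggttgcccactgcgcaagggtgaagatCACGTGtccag
Cdkn1b, chr6:134920151-134920400, plus strand: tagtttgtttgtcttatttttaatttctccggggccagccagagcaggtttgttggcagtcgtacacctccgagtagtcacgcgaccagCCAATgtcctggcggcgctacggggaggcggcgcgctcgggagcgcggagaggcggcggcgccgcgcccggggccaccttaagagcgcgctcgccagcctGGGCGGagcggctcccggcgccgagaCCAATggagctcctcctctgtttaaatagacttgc

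The Cdk4 window held 4 E-boxes, at 172, 118, 98 and 11 bases before the start, and 1 GC box. An E-box was present in 6.02% of all 32851 promoter windows of this length. The Cdkn1b window held 1 GC box and 2 CCAAT boxes, which 32.7% and 33.8% of all windows had, and 28 CpG dinucleotides beside a median of 6. The Cdkn2b window held 0 matches to any of these motifs, and 12 CpGs. RefSeq start sites of 8 of the 10 genes were matched, in 11 windows, without Ccnd1 and Ccnd2. Of these 11 windows 7 had a GC box, 3 a CCAAT box, 2 an E-box, 1 a TATA box (12.4% of all windows) and 0 an E2F word (1.86%). A match describes letters in the window and says nothing of binding in these cells.

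Ordered by level per length, Ccnd1 led both libraries, above 97.2% of all rows at P7 and 97.5% at P28, and Cdkn2c was last in both. At P7 the order was Ccnd1, Cdk4, Cdkn1a, Ccnd3, Ccnd2, Cdkn2b, Cdk6, Cdkn2d, Cdkn1b and Cdkn2c. The counting intervals of neighbours overlapped from Cdkn1a through Ccnd3 to Ccnd2, and from Cdk6 through Cdkn2d and Cdkn1b to Cdkn2c. At P28 the order was Ccnd1, Cdkn1a, Cdk4, Ccnd3, Ccnd2, Cdkn2d, Cdkn1b, Cdk6, Cdkn2b and Cdkn2c, with overlaps from Cdkn1a through Cdk4 to Ccnd3, between Cdkn2d and Cdkn1b, and between Cdk6 and Cdkn2b. Cdkn2b thus moved from the sixth place to the ninth, and Cdk4 from a level above that of Cdkn1a to one whose interval overlapped it.

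Ratios between genes of 1 library are free of the scaling between libraries. Summed D-type cyclins stood at 2.23 times the summed kinases at P7 and 3.38 times at P28, and summed CIP/KIP inhibitors at 0.755 and 1.21 times the kinases. Summed INK4 inhibitors stood at 0.505 and 0.453 times the kinases, and at 0.669 and 0.373 times the CIP/KIP inhibitors. CIP/KIP inhibitors relative to D-type cyclins had 0.339 and 0.359. These sums have no interval, but single pairs do. Of the 45 pairs of the 10 genes, 33 shifted by more than the counting interval and 12 did not, with no correction for the number of pairs. Each gene enters 9 of these pairs, and no share over pairs of all genes was taken to set beside the 33. Intervals of single genes lay below 1 for 32.3% of all genes and above 1 for 17.5%. The count is therefore not read as a trait of the 10 genes. Cdkn2b shifted downward against 8 of the 9 other genes, all but Cdkn2c, and Cdkn2c against 8, all but Cdkn2b. Cdk4 shifted against 8 of 9, downward against all 3 cyclins, both CIP/KIP genes and Cdkn2d. Relative to Ccnd1 the shift of Cdk4 was clear, since the ratio of Ccnd1 to Cdk4 was 1.31 at P7 and 2.32 at P28, a 1.77-fold shift (1.53 to 2.05). Ccnd1, Cdkn1a, Cdkn1b and Cdkn2d did not shift against each other by more than counting error in any of their 6 pairs.

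**Figure D3:**
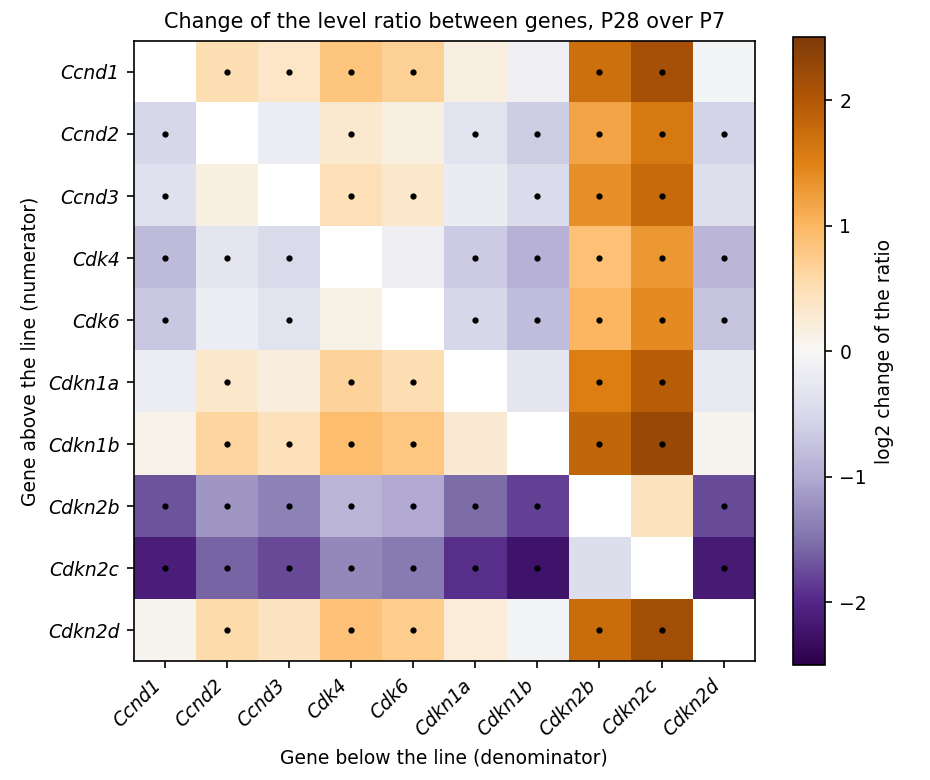
Change of the level ratio between every pair of the 10 genes, as log2 of the P28 ratio over the P7 ratio, with the numerator gene in rows and the denominator gene in columns; black dots mark pairs whose 95% counting interval excludes no change. The Cdkn2b and Cdkn2c rows are purple (lower at P28) against the other 8 genes, and the Cdk4 and Cdk6 rows are purple against Ccnd1, Cdkn1a, Cdkn1b and Cdkn2d.

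The sign of the log2 ratio was the same under every scaling for 6 genes and turned with equal totals for 4. Of the 6, Ccnd3 had a counting interval that includes 1 at the deposited scaling. Its log2 ratio ran from -0.49 with equal totals to -0.05 with the median log2 ratio set to 0. Ccnd2, Ccnd3, Cdk4, Cdk6, Cdkn2b and Cdkn2c had a negative log2 ratio under every scaling. A change of pseudocount or filter cannot turn the sign of a ratio, so those settings do not bear on it. Ccnd1, Cdkn1a, Cdkn1b and Cdkn2d had positive ratios of 0.04 to 0.23 as deposited and negative ones of -0.33 to -0.05 with equal totals. That rescaling shifted the median of all genes by -0.29, from -0.08 to -0.38. The 4 genes lay above the median of all genes on both scales, and the other 6 below it on both. Cdkn2b was called lower under all 4 other scalings.

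**Figure D4:**
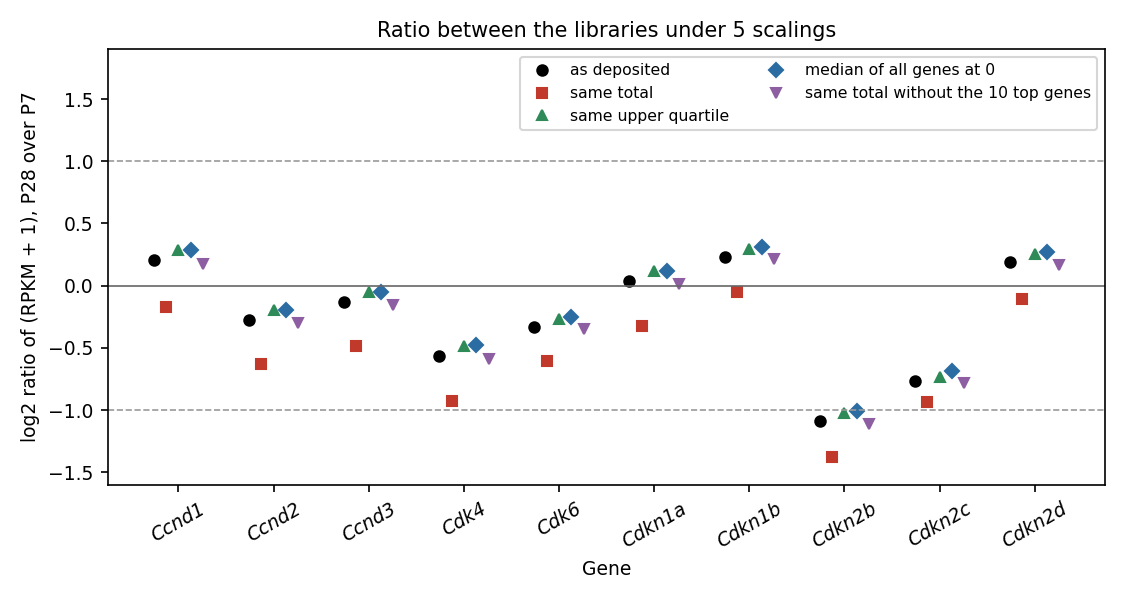
log2 ratio of (RPKM + 1) at P28 over P7 for each of the 10 genes, with 1 symbol per scaling of the libraries and dashed lines at 2-fold. The red squares (same total) are the lowest symbol of every gene and put all 10 below 0, and Cdkn2b alone reaches the lower dashed line.

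Around these 10 genes the wider G1 pathway held few differences of 2-fold. Of its 62 further genes 52 passed the filter, of which 0 were called higher and 2 lower (E2f8 and Cdkn1c), or 3.85% beside 1.96% of all genes. Their median log2 ratio was -0.21, with 41 below 0, of which 7 passed through P7 alone and had to be, and 11 above. Foxo4 passed through P28 alone and had to be above. Counting intervals of the plain ratio lay below 1 for 24 of the 52 and above 1 for 9. That was so for 32.3% and 17.5% of all genes with a transcript length. The 52 include the genes that passed in 1 library alone, whose direction the filter fixed. Among the pocket proteins, E2F factors and partners, 1 of 15 was called lower and 0 higher. That was E2f8, a repressive E2F made late in G1 and S phase, which had 1.60 RPKM in the P7 library and 0.231 in the P28 library, a gap of 6.92-fold (4.20 to 11.7). It passed the filter through P7 alone, as Cdkn2c did. Of 6 genes of cyclin E, CDK2 and the CDK-activating kinase none was called, and the small CDK subunit gene Cks1b had 6.83 and 3.81 RPKM, 1.79-fold lower (1.32 to 2.42).

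Of 11 ubiquitin ligase genes that turn over G1 regulators none was called. Among them Cul1 had 12.8 and 9.29 RPKM and Ddb1 15.8 and 12.2, while Skp1a had 31.8 and 35.6 and Rbx1 8.89 and 10.6. With equal totals the log2 ratios of Skp1a and Rbx1 turned from 0.16 and 0.23 to -0.23 and -0.13. Of 19 upstream regulators none was called. Trp53, which encodes the p53 factor that drives Cdkn1a, had levels of 7.78 and 4.25 RPKM and was 1.83-fold lower (1.50 to 2.23), beside a Cdkn1a ratio of 1.03. Smad3, a TGF-beta signal transducer upstream of Cdkn2b, had 5.27 and 3.46 RPKM, 1.52-fold lower (1.33 to 1.74), and Klf4 had 6.01 and 4.02. Foxo3, a forkhead factor known to drive Cdkn1b, was higher, with 11.6 and 18.1 RPKM and a ratio of 1.55 (1.41 to 1.72). Its log2 ratio of 0.60 stayed positive with equal totals, at 0.23.

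Genes of the later phases of the cycle were called lower in part. Of 20 S phase genes, 8 passed the filter in both libraries, of which 1 was called lower and 0 higher. A further 9 passed through P7 alone, so they had to be lower at P28, and 3 of them were called. Of 17 genes of G2 and mitosis, 9 passed in both libraries, of which 6 were called lower and 0 higher, while 8 passed through P7 alone and 1 of them was called. The rule called 1.96% of all genes lower. With equal totals the counts of genes called lower went from 4 to 10 for S phase and from 7 to 9 for G2 and mitosis. Those counts include genes that passed through P7 alone, and stand beside 4.61% of all genes called lower with equal totals. Pcna, the replication clamp, had 27.5 RPKM at P7 and 19.4 at P28, while Mki67 had 14.8 and 3.56 and Top2a 9.41 and 2.69. By family, the median of the G1 genes was -0.77 for INK4, -0.45 for the kinases, -0.13 for D-type cyclins and 0.13 for CIP/KIP. With equal totals these were -0.935, -0.766, -0.488 and -0.189. Each rests on 2 or 3 genes, and the INK4 value on both scales is that of Cdkn2c, which passed through P7 alone. Whether the 10 genes differ from these lists was not tested. Cdkn1c, the imprinted CIP/KIP gene for p57, had levels of 8.30 and 2.18 RPKM and was 3.81-fold lower (3.03 to 4.85), with a log2 ratio of -1.55.

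**Figure D5:**
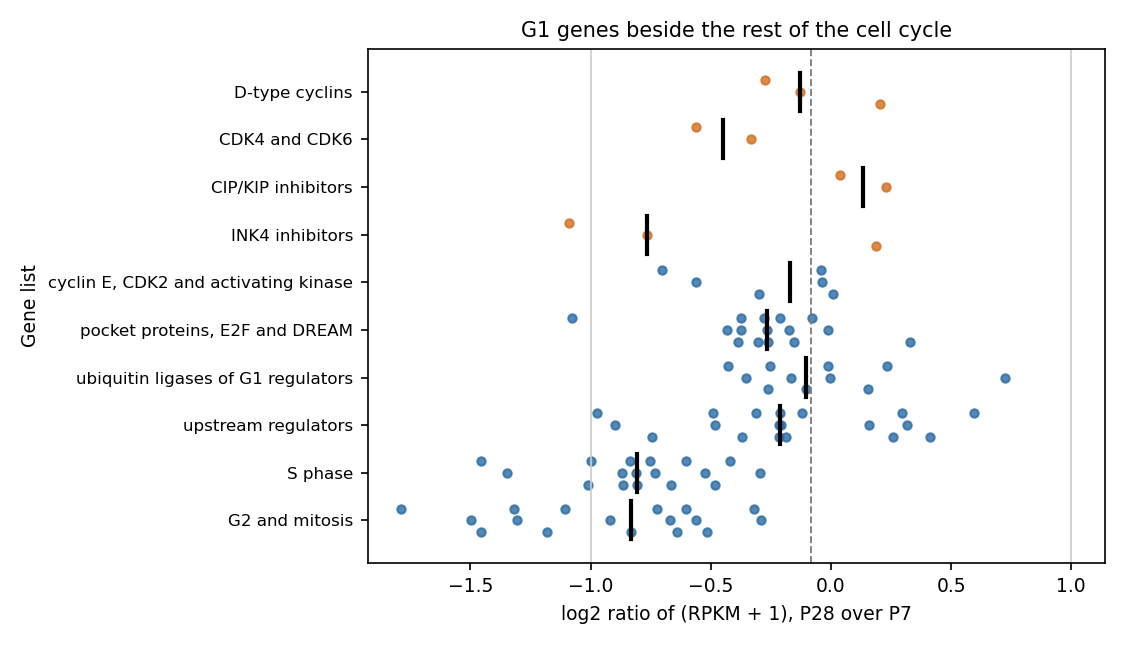
log2 ratio of (RPKM + 1) at P28 over P7 for every gene that passed the filter, 1 row per list, with the 10 G1 genes in orange, further genes of the cell cycle in blue, black bars at list medians, a dashed line at the median of all genes (-0.08) and grey lines at 2-fold. The S phase and mitosis points all lie left of 0, which for 9 and 8 of them the filter fixed, while the G1 points lie on both sides at this scaling and all left of 0 with equal totals.

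With 2 libraries a pattern is no more than a pair of values, and likeness was taken as the distance between pairs of log2(RPKM + 1). For Ccnd1 the nearest genes were Zfp488 (18.2 and 21.2 RPKM), Ndufb8 (18.1 and 21.3) and Glrx (18.1 and 20.8). For Cdkn2b, genes among the 3 nearest were Adamts9 (4.61 and 1.77 RPKM) and P3h2 (4.34 and 1.61).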

How the data were processed

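Per the labels' protocols, RNA of type II pneumocytes was made into Nextera XT libraries and read as paired ends. TopHat, TopHat2 2.0.9, GRCm38 and mm10 appear in the submitters' processing notes, without a role. Per the file headers, the authors deposited RPKM values, and 0 columns of per-sample values went unused. How RPKM was computed, with which annotation and filters, is not given in the sources used here.

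Transcript lengths came from GENCODE vM21 (GRCm38) transcripts linked to RefSeq, for 23864 of 24369 rows. Low RPKM values times length fell within 0.05 of whole steps for 58.3% of 2958 genes in the P7 library and 54.3% of 3189 in the P28 library (10% by chance). These steps gave the read numbers. Genes with several lengths took the shortest, which gives the widest interval. This applied to 3 of the 10 genes (Ccnd3, Cdkn1a and Cdkn2c), whose read numbers are approximate. Intervals of RPKM ratios are Clopper-Pearson, those of levels exact Poisson, and those of shifts between gene pairs exact conditional odds-ratio intervals (SciPy 1.17.1, Python 3.11.15).

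Genes that reached 1 RPKM in either library were compared as log2((P28 RPKM + 1)/(P7 RPKM + 1)) and called at 2-fold, without a test. The procedure was tested on simulated data. Alternatives changed the pseudocount (0.1, 5), the filter (none, 5 RPKM) and the scaling. Named were the 10 genes, up to 4 genes of 5 RPKM or more per pathway list by size of log2 ratio together with every gene called, up to 2 in each of the S phase and mitosis lists, and the 3 nearest genes to the most abundant and to the most different gene, of which 1 is not reported here. The 10 genes and all lists were chosen with earlier results of these data known.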

Additional observations from a re-analysis of the deposited data

How the results depend on the processing

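No paired analysis was possible because each age had 1 library, and for the same reason no library could be left out. Between 0 and 2 of the 10 genes were called lower at P28 across the alternatives, and 0 were called higher in any of them. With a pseudocount of 0.1 the count of genes called lower was 2 (Cdkn2b and Cdkn2c), against 1 as reported. Cdkn2c passed the filter through P7 alone and had to be lower. The count was 0 with a pseudocount of 5, where Cdkn2b had a log2 ratio of -0.53, and 0 with a filter of 5 RPKM, which leaves Cdkn2b untested. Of the 62 further pathway genes, 52 passed the filter of 1 RPKM, and 2 were called lower as reported, beside 1.96% of all genes. With a pseudocount of 0.1 the counts were 4 lower and 1 higher, beside 5.49% and 2.34% of all genes. With equal totals 6 were called lower, beside 4.61%. The count called lower was 0 with a pseudocount of 5, 1 with the filter of 5 RPKM and 1 with the median log2 ratio set to 0. For these settings the share of all genes is not given. Of 75 log2 ratios of single G1 genes under alternatives, 67 moved by less than their counting interval and 8 by more. The 67 include those under the other filters, which cannot move a ratio. With equal totals the ratios of Ccnd1, Ccnd2, Ccnd3, Cdk4, Cdk6 and Cdkn1a moved by more. With a pseudocount of 5 those of Cdk6 and Cdkn2b did. The sign changed for 4 genes, each with equal totals only. Shares by reads rather than RPKM weigh long transcripts more, and 13 of 20 moved beyond counting error. Cdk6, with the longest transcript, held 51.1% of the reads of the kinases at P7 and 15.7% of their RPKM. Depth limits Cdkn2c most, at 25 and 9 reads.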

Other observations

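Some regulators of G1 below 5 RPKM are named here after their values were seen. Mycn, which encodes the N-Myc factor of lung progenitors, had 1.18 RPKM at P7 and 0.110 at P28, a log2 ratio of -0.98. Its plain ratio made it 10.8-fold lower (5.08 to 29.1), while Myc had 0.663 and 0.509 RPKM with an interval of the ratio that includes 1 (0.415 to 1.49). Foxm1, a factor of late cell cycle genes, had 2.30 and 0.773 RPKM, 2.98-fold lower (2.31 to 3.89). Ccne1, the gene of cyclin E1, had 10 reads at P7 and 2 at P28, and the kinase gene Cdk2 1.61 and 0.769 RPKM, 2.10-fold lower (1.40 to 3.18). E2f7, the partner of E2f8, had 0.964 and 0.253 RPKM, 3.82-fold lower (2.56 to 5.84). In the other direction Fbxo4, an F-box gene linked to cyclin D turnover, had 1.20 and 2.64 RPKM, a ratio of 2.20 (1.48 to 3.38), and E2f2 3.64 and 4.84 RPKM, a ratio of 1.33 (1.15 to 1.53). With equal totals the log2 ratio of Fbxo4 was 0.48 and that of E2f2 0.01. Of these genes Mycn, Foxm1 and Cdk2 passed 1 RPKM at P7 alone, and Myc, Ccne1 and E2f7 in neither library.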
